A study of Mus musculus with 2 samples.

Results

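The interleukin-12 (IL-12) and interleukin-15 (IL-15) genes of glioma-infiltrating leukocytes were followed through 10 members, taken by symbol from both count matrices among 31053 genes. They are the subunit genes Il12a, Il12b, Il23a, Il27 and Ebi3, the ligand gene Il15 with its presenting receptor gene Il15ra, and the lymphocyte receptor genes Il2rb, Il12rb2 and Il18r1. Every barcode with at least 1000 unique molecular identifiers (UMIs) and at most 17% mitochondrial UMIs was used, which left 10107 cells of the WT library and 7604 cells of the CD169-DTR library. All 10 members were detected in both libraries, with between 101 UMIs (Il12a) and 4413 UMIs (Ebi3) over both.

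Both groups were C57BL/6 males of 8 to 12 weeks that received 100000 GL261 cells, a mouse glioma line, in the brain and diphtheria toxin 1 day before and 4 days after. WT mice lacked the toxin receptor (genotype label CD169-DTR wild type). CD169-DTR mice (label CD169-DTR hetero type) carried it in 1 copy of Siglec1, the gene of the macrophage surface lectin CD169, so that the toxin acts on cells that express CD169. On day 10 the live CD45.2-positive cells of 3 pooled mice per genotype were sorted and read as 1 droplet library (3' ends of transcripts, Cell Ranger 3.1.0, mm10). With 1 library per group no test was possible and the spread between mice is unknown. Each level below is the UMIs of a gene per 1000000 UMIs of a cell group (CPM), WT before CD169-DTR, and each log2 ratio is WT over CD169-DTR with an exact 95% interval that covers counting error only.

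IL-12 is a pair of chains, p35 from Il12a and p40 from Il12b. The p40 chain also joins p19 from Il23a to make IL-23, while IL-27 pairs p28 from Il27 with the product of Ebi3, and Ebi3 and Il12a products together form IL-35. Myeloid cells secrete IL-12, which acts on NK and T cells through a receptor that contains the Il12rb2 chain and raises interferon-gamma, an action that IL-18 strengthens through the Il18r1 receptor. IL-15 is held on the surface of the cell that makes it by IL-15 receptor alpha and is shown from there to lymphocytes that carry the beta chain from Il2rb, on which NK cells and memory CD8 T cells depend for survival.

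The start regions of 3 of these genes are given because the results turn on them: Il12b, whose UMIs lay in a few rich cells; Il15ra, which moved with Il15 in macrophages; and Il12rb2, highest per UMI in NK cells. The sequences are the 250 bases before a start of each gene on GRCm38.p6 from RefSeq. It matched 6 of the 10 members with 10 start windows in all, several for some genes. Il23a, Il27, Il15 and Il2rb were not matched. Capitals mark GAGGAA (the core bound by the myeloid factor PU.1, on either strand) in the first 2 and TTCNNNGAA (the core bound by STAT factors) in the third.
Il12b, chr11:44399813-44400062, plus strand: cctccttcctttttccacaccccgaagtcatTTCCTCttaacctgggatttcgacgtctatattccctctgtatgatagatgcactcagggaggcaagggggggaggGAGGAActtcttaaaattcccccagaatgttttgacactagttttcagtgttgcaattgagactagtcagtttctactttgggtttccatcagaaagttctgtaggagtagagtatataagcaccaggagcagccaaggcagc
Il15ra, chr2:11705043-11705292, plus strand: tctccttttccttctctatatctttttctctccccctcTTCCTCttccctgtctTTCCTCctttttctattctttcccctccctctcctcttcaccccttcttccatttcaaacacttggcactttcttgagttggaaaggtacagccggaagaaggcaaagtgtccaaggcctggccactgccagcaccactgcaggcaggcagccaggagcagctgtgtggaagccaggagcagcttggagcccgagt
Il12rb2, chr6:67376189-67376438, minus strand: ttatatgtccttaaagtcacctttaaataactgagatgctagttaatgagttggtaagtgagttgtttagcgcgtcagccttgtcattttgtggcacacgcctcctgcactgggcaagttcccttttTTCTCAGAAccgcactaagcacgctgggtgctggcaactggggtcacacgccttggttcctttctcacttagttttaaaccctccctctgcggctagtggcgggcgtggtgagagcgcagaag

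GAGGAA began 219 and 143 bases before the start of Il12b and 212 and 196 bases before the printed start of Il15ra. TTCNNNGAA began 123 bases before the start of Il12rb2. Another Il15ra start window (chr2:11705462-11705711), not printed, held no GAGGAA. Searched on both strands with possible overlaps, GAGGAA was found in 4 of the 10 member windows and in 23.3% of all 32851 windows of that length. TTCNNNGAA was found in 2 of 10 against 7.02%, an NF-kB pattern (GGG and CC with any 5 bases between them) in 4 of 10 against 45.8%, and an IRF pattern (GAAA on both sides of any 2 bases) in 0 of 10 against 2.98%. These are letter matches and not binding sites.

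Clusters were named from marker genes, which gave 8904 WT and 6912 CD169-DTR immune cells of a named class. Microglia made up 54.0% of WT and 78.8% of CD169-DTR immune cells, macrophages 24.0% and 10.0%, dendritic cells (DCs) 9.93% and 2.34%, T cells 4.32% and 2.69%, and NK cells 3.36% and 1.22%. Microglial Tmem119 stood at 1199 and 1286 CPM in microglia against 57.1 and 136 CPM in macrophages, and NK marker Ncr1 at 418 and 597 CPM in NK cells. Both genes were among the markers that named the clusters, so these levels are no separate check of the names. Siglec1 itself fell from 38.1 to 12.3 CPM in macrophages (log2 ratio 1.63, 1.34 to 1.93) and from 18.9 to 5.61 CPM in microglia, and in DCs it stood at 40 UMIs against 0. Loss of cells that express CD169 and loss of 1 Siglec1 copy cannot be told apart in these values. Microglia and macrophages were no pure gates: the 9 microglial markers summed to 969 CPM in WT and 1774 CPM in CD169-DTR macrophages, all 9 being detected in both. The libraries shared 21 barcodes, and free RNA, measured by the choroid plexus gene Ttr, made up between 0.967% and 3.23% of the UMIs of a class.

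A member was counted as higher when it differed at least 2-fold with at least 20 UMIs over both libraries, and the share of all genes past the same fold is given as background. In macrophages 4 of 8 measured members were higher in WT (Il27, Il15, Il15ra, Il12rb2; background 3.69% of 11531 genes) and 1 was higher in CD169-DTR (Il12b; background 2.41%). DCs had 3 of 7 higher in WT (Il15, Il15ra, Il12rb2; background 3.51%) and 0 higher in CD169-DTR (background 3.12%). In microglia 3 of 9 were higher in WT (Il12b, Il2rb, Il18r1; background 1.42%) and 0 in CD169-DTR (background 1.44%). T cells had 0 of 5 past 2-fold in either direction, where 5.75% of genes were higher in WT and 1.70% in CD169-DTR. NK cells had 1 of 5, Il15, higher in WT (background 4.42%) and 0 higher in CD169-DTR (background 2.28%). The median log2 ratio of the measured members was 1.03 in macrophages, 0.57 in DCs, 0.22 in microglia, -0.02 in T cells and 0.13 in NK cells, where the median of all genes lay between -0.06 and 0.09. Il15, Il15ra and Il12rb2 thus passed 2-fold in both macrophages and DCs, and no receptor gene passed it in T or NK cells.

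**Figure D1:**
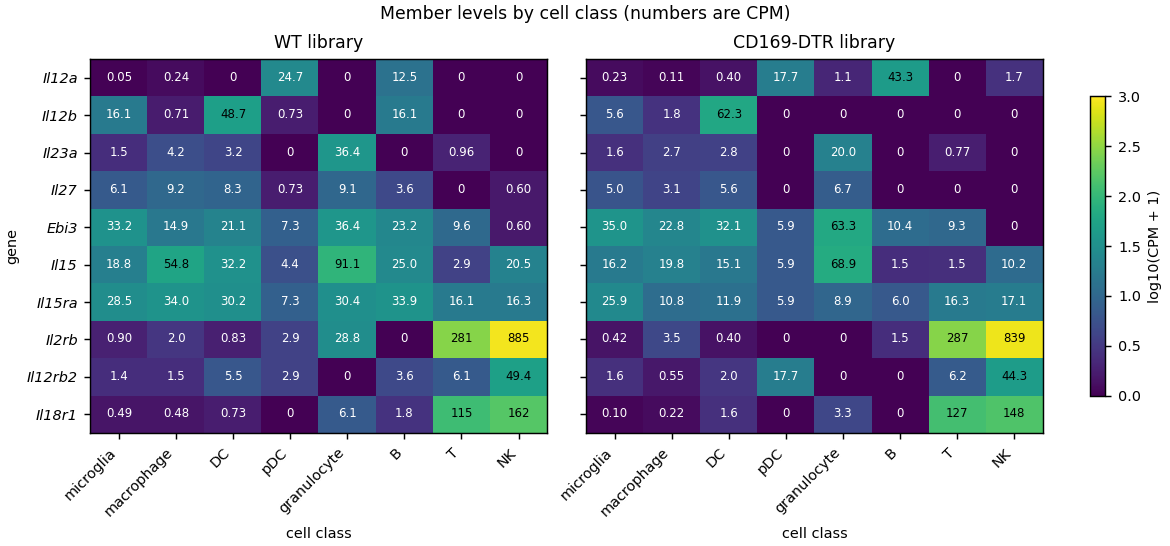
Level of the 10 members in 8 immune classes of the WT and the CD169-DTR library, as log10(CPM + 1), where CPM is UMIs per 1000000 UMIs of the class. Lighter colors are higher levels. Il2rb and Il18r1 stand out in NK and T cells, Il12a in pDCs and B cells, and Il15 is lighter in WT than in CD169-DTR macrophages (54.8 against 19.8 CPM).

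Il12b, the gene of the p40 chain, was read in DCs and in a small set of microglia. Its level in DCs was 48.7 CPM in WT (530 UMIs) and 62.3 CPM in CD169-DTR (157 UMIs). The difference, -0.36 (-0.62 to -0.09), rested on single cells: the richest DC held 114 UMIs in WT and 89 in CD169-DTR, and without it in each library the log2 ratio was 0.49. Microglia held 16.1 CPM in WT (696 UMIs) and 5.61 CPM in CD169-DTR (293 UMIs), a log2 ratio of 1.52 (1.33 to 1.73). Macrophages held 12 UMIs in WT and 16 in CD169-DTR (0.714 and 1.76 CPM), a log2 ratio of -1.30 (-2.51 to -0.13) that was 0.03 with putative doublets removed, and T and NK cells held none. Of all Il12b UMIs in immune cells, microglia gave 55.8% in WT and 62.9% in CD169-DTR, and DCs 42.5% and 33.7%.

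Among DCs, the Ccr7 migratory DC-like cells, which carry the lymph node homing receptor gene Ccr7, held most Il12b. They had 396 CPM in WT, with a UMI in 38 of 118 cells (32.2%), and 836 CPM in CD169-DTR, with a UMI in 5 of 11 cells (45.5%), a log2 ratio of -1.08 (-1.34 to -0.81). Only 15 WT and 4 CD169-DTR cells had 5 or more UMIs, and these held 442 of 492 and 152 of 155 UMIs. The 11 CD169-DTR cells had a median of 17100 UMIs against 10071.5 in WT, and their 9 microglial markers summed to 3731 CPM against 768 CPM. Both values moved with Il12b, and their part in the difference was not tested. The remaining DCs gave between 0 and 5.29 CPM in each subset of either library.

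Among microglia, Il12b was concentrated in 1 subset led by the chemokine genes Cxcl13 and Ccl12. It held 113 CPM in WT (543 UMIs) and 46.9 CPM in CD169-DTR (167 UMIs), a log2 ratio of 1.27 (1.02 to 1.53), where the P2ry12 Slc2a5 and Gpr34 Csmd3 microglia gave at most 0.601 CPM in either library. A UMI was found in 41 of 491 WT cells (8.35%, interval 6.06% to 11.2%) and in 22 of 362 CD169-DTR cells (6.08%, 3.85% to 9.06%), at median depths of 8902 and 8502 UMIs, so the shares of cells overlapped in their intervals while the UMIs did not. The Il1a Ccl4 microglia stood at 15.96 and 3.88 CPM and the Uhrf1 Ccne1 microglia at 19.4 and 4.72 CPM. In WT, 608 of 696 microglial Il12b UMIs lay in 21 cells, 491 of them in 15 Cxcl13 Ccl12 cells. In CD169-DTR, 222 of 293 lay in 16 cells, 134 of them in 9 Cxcl13 Ccl12 cells. The richest cell of that subset held 110 of its 543 UMIs in WT and 54 of 167 in CD169-DTR. Counts within and outside that subset thus rest largely on few cells, which counting intervals, that of its ratio of 1.27 included, do not cover. Il12b in Spp1 Lpl microglia was instead higher in CD169-DTR, with 8 UMIs in WT and 67 in CD169-DTR (0.686 and 5.19 CPM). Against other microglia, the leading genes of this subset hold 3 macrophage markers (Fn1, Ms4a7, Gpnmb) and 0 microglial ones, and its 12 macrophage markers summed to 953 and 583 CPM beside 16840 and 18322 CPM for the 9 microglial markers. An alternative chosen after seeing the data left out the subsets led by markers of another class (Spp1 Lpl, Mki67 Cenpf and Ccnb2 Cd5l). The microglial Il12b ratio was then 1.95, and Il12b was the 1 member with at least 20 UMIs that passed 2-fold. Il18r1 had a ratio of 4.45 there but too few UMIs left to be counted.

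A few cells carried this signal in both libraries. Of the microglia, 70 of 4806 in WT (1.46%) and 50 of 5447 in CD169-DTR (0.918%) had an Il12b UMI, at median depths of 7554.5 and 7801 UMIs over all microglia. Thinned to 3000 UMIs per cell the shares were 0.921% and 0.497%, against 0 of 342 and 0 of 175 T cells, which allows up to 0.877% and 1.71%. The 21 WT and 16 CD169-DTR microglia with at least 5 UMIs, a limit chosen after the values were seen, held 87.4% and 75.8% of all microglial Il12b UMIs, and 6 and 7 cells were enough to hold 50% of the UMIs.

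These Il12b-rich microglia still carried microglial genes. Most of them, 15 of 21 in WT and 9 of 16 in CD169-DTR, belonged to the Cxcl13 Ccl12 subset, so the comparison with all other microglia is in part one between subsets. Tmem119 stood at 452 CPM in WT and 761 CPM in CD169-DTR against 1210 and 1294 CPM in microglia without an Il12b UMI, and Sparc at 2347 and 3079 against 2956 and 3020 CPM. The homeostatic gene P2ry12 was at 358 and 430 CPM against 1108 and 1271 CPM. Higher were Cd40, the costimulatory receptor through which T cells drive IL-12 (277 and 167 against 20.8 and 11.9 CPM), Tnf (576 and 761 against 200 and 272 CPM) and the T cell attractant Cxcl9 (202 and 464 against 28.5 and 10.8 CPM). The rich cells held 0 Il12a UMIs in both libraries. Il27 stood at 97.7 and 22.8 CPM against 5.43 and 4.62 CPM, and Il15ra at 87.9 and 49.5 against 27.9 and 25.4 CPM. The rich cells were deeper, with medians of 14572 and 14296 UMIs against 7479.5 and 7776. Ccr7, a defining gene of migratory DCs, was at 48.8 and 26.6 CPM against 3130 and 2518 CPM in the migratory DC-like cells. It was nonetheless higher in the rich cells than in microglia as a class. The part of depth or of DC transcripts in this was not tested. With putative doublets removed the microglial Il12b ratio was 1.45.

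Within the Cxcl13 Ccl12 subset alone, the rich cells were set against 450 WT and 340 CD169-DTR cells with 0 Il12b UMIs. Cd40 stood at 381 and 307 against 105 and 75.1 CPM, Tnf at 503 and 395 against 197 and 204 CPM, and Cxcl9 at 249 and 878 against 121 and 41.4 CPM. Tmem119 was at 458 and 593 against 993 and 1174 CPM, and P2ry12 at 358 and 446 against 490 and 646 CPM. Il15ra stood at 95.2 and 73.2 against 79.6 and 80.7 CPM, with overlapping intervals in each library, so its difference over all microglia was not seen within the subset. Il27 was at 109 CPM (24 UMIs) and 43.9 CPM (6 UMIs) against 16.2 and 16.6 CPM, and in CD169-DTR its intervals overlapped.

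**Figure D2:**
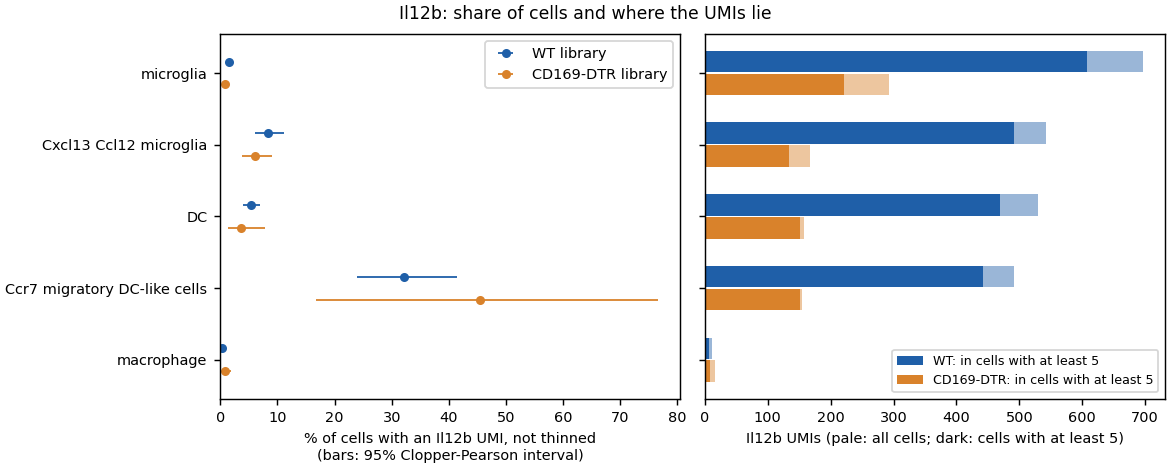
Il12b in microglia, DCs and macrophages, and in Cxcl13 Ccl12 microglia and Ccr7 migratory DC-like cells, of both libraries. Left: percent of cells with at least 1 Il12b UMI, not thinned, with exact 95% intervals. Right: Il12b UMIs, with the part held by cells of 5 or more UMIs in the dark bar. The intervals of the libraries overlap in the share of cells. UMIs are not scaled to cell number: Cxcl13 Ccl12 microglia hold 543 in 491 WT cells against 167 in 362 CD169-DTR cells. Migratory DC-like cells hold 492 in 118 against 155 in 11, and macrophages hold 12 against 16.

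Il12a, the gene of the p35 chain, was rare and highest in plasmacytoid DCs (pDCs), the makers of type I interferon, and in B cells. The pDCs held 24.7 CPM in WT (34 UMIs, 125 cells) and 17.7 CPM in CD169-DTR (3 UMIs, 13 cells), a log2 ratio of 0.48 (-1.19 to 2.83). B cells held 12.5 CPM in WT (7 UMIs) and 43.3 CPM in CD169-DTR (29 UMIs), a log2 ratio of -1.79 (-3.23 to -0.57). The sources of Il12a thus differed between the libraries: pDCs gave 72.3% of its 47 immune UMIs in WT and 6.25% of 48 in CD169-DTR, B cells 14.9% and 60.4%, and microglia 4.26% (2 UMIs) and 12 of the 48. None of the 29 WT and 35 CD169-DTR cells with an Il12a UMI held an Il12b UMI, which allows a share of up to 11.9% and 10.0% (upper exact limits), so that no cell with both chains of IL-12 was read at this depth.

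Il23a, which encodes the p19 chain of IL-23, was highest in granulocytes, at 36.4 CPM in WT (24 UMIs) and 19.99 CPM in CD169-DTR (18 UMIs; log2 ratio 0.87, -0.08 to 1.83). Macrophages held 4.22 and 2.74 CPM, a log2 ratio of 0.62 (-0.05 to 1.34), DCs 3.21 and 2.78 CPM and microglia 1.46 and 1.63 CPM. Each of these intervals includes 0. Il23a and Il12b were found together in 2 of 164 WT and 4 of 106 CD169-DTR cells with Il23a.

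Il27, the gene of the p28 chain, was lower in CD169-DTR macrophages. They held 9.22 CPM in WT (155 UMIs) and 3.07 CPM in CD169-DTR (28 UMIs), a log2 ratio of 1.58 (1.00 to 2.22). Microglia held 6.14 and 5.00 CPM (0.30, 0.05 to 0.55), and DCs 8.27 and 5.56 CPM (0.57, -0.25 to 1.501). By subset, Cxcl10 Ifit1 macrophages held 17.7 CPM (100 UMIs) and 7.07 CPM (10 UMIs), a log2 ratio of 1.32 (0.39 to 2.43), and Cxcl10 Ifit3 Cd209a DCs held 17.8 CPM (27 UMIs) in WT and 0 UMIs in CD169-DTR, where 3 counts would be 10.7 CPM. Ear2 Treml4 macrophages held 9 and 5 UMIs (1.29, -0.44 to 3.21). The Cxcl13 Ccl12 microglia, which also carry interferon-induced genes such as Rsad2 and Ifit1, stood at 20.1 CPM (96 UMIs) and 19.9 CPM (71 UMIs), a log2 ratio of 0.01 (-0.45 to 0.47). Xcr1 cDC1-like cells, the cross-presenting DCs, held 15.6 and 20.3 CPM (-0.38, -1.37 to 0.74).

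Ebi3, the partner chain of IL-27 and IL-35, was read in every microglial subset and stood higher in the macrophages and DCs of CD169-DTR. Its 8 microglial subsets ranged from 23.6 to 38.2 CPM in WT and from 25.3 to 40.3 CPM in CD169-DTR, and microglia as a class stood at 33.2 and 35.0 CPM (-0.07, -0.17 to 0.03). Macrophages held 14.9 CPM in WT (251 UMIs) and 22.8 CPM in CD169-DTR (208 UMIs), a log2 ratio of -0.61 (-0.88 to -0.34). DCs held 21.1 CPM (230 UMIs) and 32.1 CPM (81 UMIs), -0.61 (-0.98 to -0.22). In both, the 9 microglial markers were higher in CD169-DTR as well (969 and 1774 CPM in macrophages, 595 and 1288 CPM in DCs), and their part in this difference was not tested. Cxcl10 Ifit1 macrophages stood at 14.2 and 14.1 CPM (0.00, -0.72 to 0.79), and these markers summed to 537 and 1293 CPM there. Granulocytes were also higher in CD169-DTR, at 36.4 and 63.3 CPM (-0.80, -1.55 to -0.09), and B cells held 13 and 7 UMIs (1.15, -0.28 to 2.72). The highest macrophage levels lay in Ear2 Treml4 macrophages, which carry genes of patrolling monocytes, at 56.2 and 90.3 CPM (-0.69, -1.48 to 0.07). Foxp3 Treg-like cells, for which IL-35 is a known product, held 35.4 CPM (17 UMIs) and 53.7 CPM (10 UMIs) where all T cells held 9.65 and 9.29 CPM.

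Il15, the ligand gene for NK and memory CD8 T cells, was lower in CD169-DTR macrophages and DCs. Macrophages held 54.8 CPM in WT (921 UMIs) and 19.8 CPM in CD169-DTR (180 UMIs), a log2 ratio of 1.47 (1.24 to 1.71). DCs held 32.2 CPM (351 UMIs) and 15.1 CPM (38 UMIs), 1.10 (0.61 to 1.62), and microglia 18.8 CPM (812 UMIs) and 16.2 CPM (846 UMIs), 0.22 (0.08 to 0.36). Granulocytes were high in both, at 91.1 and 68.9 CPM (0.40, -0.13 to 0.94), and NK cells held 20.5 CPM (34 UMIs) and 10.2 CPM (6 UMIs), a ratio of 1.00 whose interval, -0.27 to 2.54, includes 0. With every cell thinned to 3000 UMIs, an Il15 UMI was found in 12.9% of 1851 WT and 5.91% of 660 CD169-DTR macrophages, against 0.877% and 0.571% of T cells. Without thinning, at 7091.5 and 11742 median UMIs per macrophage, 23.1% and 18.2% had one. The summed microglial markers of these macrophages went the other way (969 and 1774 CPM), and their part in the differences of Il15 and Il15ra was not tested.

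The level within subsets and the mix of subsets both differed. The WT macrophages were mostly Slfn4 Siglec1 (767 of 2138 cells) and Cxcl10 Ifit1 (656) cells, and the CD169-DTR macrophages were split over Cxcl10 Ifit1 (131 of 693), Mmp12 Cxcl3 (110), Slfn4 Siglec1 (107), Pf4 Spp1 (100) and Acp5 Gpx3 (100) cells. Within the Cxcl10 Ifit1 macrophages, Il15 stood at 119 CPM (672 UMIs) in WT and 57.3 CPM (81 UMIs) in CD169-DTR, 1.05 (0.72 to 1.41), and within the Mmp12 Cxcl3 macrophages at 32.1 and 15.4 CPM, 1.06 (0.42 to 1.76). In the Slfn4 Siglec1 macrophages it stood at 24.7 and 16.6 CPM (0.58, -0.28 to 1.55), in the Pf4 Spp1 macrophages at 17.2 and 14.5 CPM (0.24, -0.51 to 1.02), and in the F13a1 Chil3 macrophages at 22.0 and 27.8 CPM (-0.34, -1.24 to 0.58). With each macrophage cluster weighted equally the class ratio was 0.63, below 2-fold, in the same direction.

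DC subsets showed the same split. Cxcl10 Ifit3 Cd209a DCs held 93.7 CPM (142 UMIs) in WT and 43.0 CPM (12 UMIs) in CD169-DTR, 1.12 (0.28 to 2.11), and Ccr7 migratory DC-like cells 82.9 CPM (103 UMIs) and 27.0 CPM (5 UMIs in 11 cells), 1.62 (0.35 to 3.27). In the Ccl17 Ltb Cd209a DCs, the most numerous DCs, Il15 stood at 10.6 and 9.52 CPM (0.15, -0.97 to 1.46). The microglial subset with most Il15, Cxcl13 Ccl12, held 41.8 and 38.8 CPM (0.11, -0.21 to 0.43). As a result of levels and cell numbers together, macrophages gave 41.7% of immune Il15 UMIs in WT and 15.8% in CD169-DTR, and microglia 36.8% and 74.3%.

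Il15ra, the gene of the chain that presents IL-15, changed with its ligand. Macrophages held 34.0 CPM in WT (572 UMIs) and 10.8 CPM in CD169-DTR (98 UMIs), a log2 ratio of 1.66 (1.35 to 1.98), which was 0.87 with each macrophage cluster weighted equally. DCs held 30.2 CPM (329 UMIs) and 11.9 CPM (30 UMIs), 1.34 (0.80 to 1.93). Microglia held 28.5 CPM (1230 UMIs) and 25.9 CPM (1353 UMIs), 0.14 (0.03 to 0.25). By subset, the Cxcl10 Ifit1 macrophages stood at 71.7 and 29.0 CPM (1.31, 0.84 to 1.81), the Slfn4 Siglec1 macrophages at 21.6 and 7.65 CPM (1.501, 0.31 to 2.995) and the Mmp12 Cxcl3 macrophages at 17.4 and 6.15 CPM (1.501, 0.51 to 2.64). The highest level among WT subsets of at least 30 cells was in migratory DC-like cells, 175 CPM (218 UMIs), against 86.3 CPM (16 UMIs) in CD169-DTR, 1.02 (0.29 to 1.86). Cxcl13 Ccl12 microglia held 79.8 and 82.3 CPM (-0.04, -0.27 to 0.18). Thus the subset that was the richest microglial source of Il12b, Il15 and Il15ra was lower in CD169-DTR in Il12b, while the intervals of its Il15 and Il15ra ratios include 0. The Il12b UMIs of this subset lay mostly in few cells, which counting intervals do not cover.

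**Figure D3:**
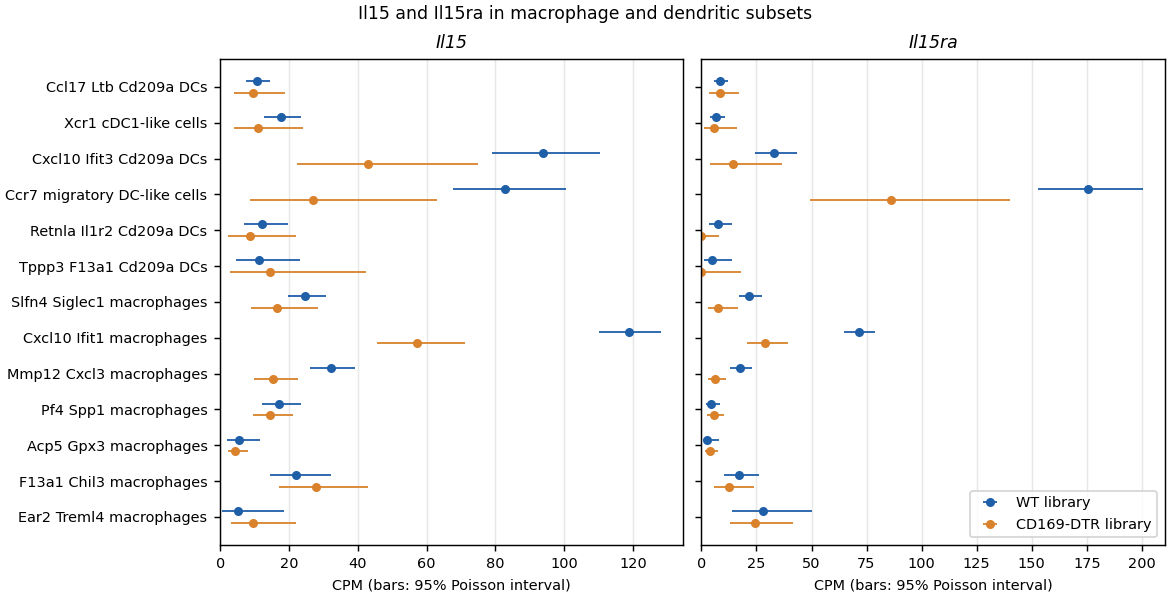
Il15 and Il15ra levels in 13 macrophage and DC subsets of both libraries, in CPM with exact 95% Poisson intervals. Cxcl10 Ifit1 macrophages are the highest macrophage subset for both genes, and their WT and CD169-DTR intervals are apart (Il15 119 against 57.3 CPM, Il15ra 71.7 against 29.0 CPM).

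The 2 IL-15 genes were also found together in single cells. Among WT macrophages with an Il15 UMI, 29.4% (145 of 493) had an Il15ra UMI against 13.01% of the others, and among CD169-DTR macrophages 24.6% (31 of 126) against 8.11%. Cells with Il15 were deeper (medians of 9182 against 6081 UMIs in WT and 13465 against 11326 in CD169-DTR), which raises both shares. In WT migratory DC-like cells, 69.6% of cells with Il15 and 62.9% of the others had Il15ra, so the presenting chain was read in most cells of this subset with or without its ligand.

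Since the toxin acts through CD169, macrophages were also split by whether they held a Siglec1 UMI. The split used all UMIs of a cell, not thinned. Member levels were then compared after thinning to 3000 UMIs, with shallower cells left out. In WT, Il15 stood at 51.3 CPM in 435 macrophages with Siglec1 and 57.2 CPM in 1416 without, a log2 ratio of -0.16 (-0.57 to 0.24). Il15ra stood at 42.1 and 33.9 CPM (0.31, -0.16 to 0.77) and Il27 at 10.7 and 10.8 CPM (-0.01, -0.99 to 0.88). These intervals include 0. Without thinning (482 and 1656 cells), Il15 stood at 47.1 and 57.1 CPM (-0.28, -0.52 to -0.04) and Il15ra at 40.1 and 32.1 CPM (0.32, 0.05 to 0.59), intervals that exclude 0, and Il27 at 8.53 and 9.43 CPM (-0.15, -0.74 to 0.41). Without Siglec1 UMIs, CD169-DTR macrophages held 23.3 CPM Il15 (572 cells) and 11.1 CPM Il15ra, below the WT cells without Siglec1 UMIs. A cell without a Siglec1 UMI may still express the gene, since the split depends on depth.

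The receptor gene Il2rb, the signalling beta chain shared by the IL-2 and IL-15 receptors, stood at like levels in the NK and T cells of both libraries. NK cells held 885 CPM in WT (1470 UMIs, 299 cells) and 839 CPM in CD169-DTR (492 UMIs, 84 cells), a log2 ratio of 0.08 (-0.07 to 0.23). T cells held 281 CPM (874 UMIs, 385 cells) and 287 CPM (371 UMIs, 186 cells), -0.03 (-0.21 to 0.15). Both intervals lie well inside 2-fold in either direction. At 3000 UMIs per cell, 89.4% of 255 WT and 90.1% of 81 CD169-DTR NK cells had an Il2rb UMI, against 0.263% and 0.191% of microglia.

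Subsets of T cells differed more than the class. In Cd8a CD8 T-like cells Il2rb stood at 385 and 410 CPM (-0.09, -0.32 to 0.14) and in Foxp3 Treg-like cells at 289 and 258 CPM (0.17, -0.32 to 0.67). The Igfbp4 Tcf7 T cells, which carry genes of naive and memory cells, held 180 CPM in WT (88 UMIs, 108 cells) and 64.7 CPM in CD169-DTR (22 UMIs, 61 cells), 1.48 (0.79 to 2.22). In the opposite direction, Cd163l1 Il17a gamma-delta T-like cells held 153 CPM (53 UMIs, 40 cells) and 286 CPM (30 UMIs, 15 cells), -0.90 (-1.58 to -0.21). The Klra4 Gzma NK cells, the main NK subset, stood at 849 and 805 CPM (0.08, -0.09 to 0.25).

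Outside lymphocytes, some Il2rb UMIs lay in barcodes that also held lymphocyte genes. In WT granulocytes all 19 UMIs were in 2 cells, both with at least 3 of 13 T and NK markers. In CD169-DTR macrophages 31 of 32 UMIs were in 1 cell of 33619 UMIs with 5 of these markers, and the class ratio of -0.80 (-1.54 to -0.05) rested on it. The 2-fold difference of Il2rb in microglia (39 and 22 UMIs, 0.904 and 0.421 CPM, 1.10, 0.31 to 1.93) came with a summed level of the 13 markers of 15.1 CPM in WT, all 13 detected, and 3.77 CPM in CD169-DTR, with Klra8 at 0. Of the 33 WT microglia with Il2rb, 7 held at least 3 of the markers, and of the 22 in CD169-DTR none did. Il18r1 in microglia (21 and 5 UMIs) moved with the same markers. Their part in both differences was not tested.

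Il12rb2, the chain that gives the IL-12 receptor its signalling tail, was highest in NK cells, at 49.4 CPM in WT (82 UMIs) and 44.3 CPM in CD169-DTR (26 UMIs), 0.15 (-0.50 to 0.85). T cells held 6.11 and 6.19 CPM (-0.02, -1.28 to 1.38), where the count of 27 UMIs over both libraries cannot show a 2-fold change. Within NK cells the Serpinb9 Irf8 cells stood at 82.7 CPM (20 UMIs) and 58.0 CPM (5 UMIs), 0.51 (-0.94 to 2.28). DCs also carried this receptor gene, with 5.51 CPM in WT (60 UMIs) and 1.98 CPM in CD169-DTR (5 UMIs), 1.47 (0.17 to 3.15). In WT it was found in 16 of 118 migratory DC-like cells (26 UMIs, 20.9 CPM), and 0 UMIs were found in the 11 CD169-DTR cells, where 3 counts would be 16.2 CPM, so a difference in that subset was not detectable at this depth. Microglia stood at 1.44 and 1.59 CPM (-0.14, -0.64 to 0.35), and as the most numerous cells they gave 24.4% of the immune Il12rb2 UMIs in WT (62 of 254) and 63.8% in CD169-DTR (83 of 130), where NK cells gave 32.3% and 26 of 130. None of the 48 WT DCs with Il12rb2 held 3 or more T and NK markers. Macrophages held 25 and 5 UMIs (1.49 and 0.549 CPM), where the 13 markers summed to 30.3 and 5.93 CPM with Eomes and Klra8 at 0 in CD169-DTR, and their part in this was not tested. In NK cells with Il2rb, 24.1% in WT and 26.8% in CD169-DTR also had an Il12rb2 UMI.

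Il18r1, the binding chain of the IL-18 receptor, stood at 162 CPM in WT (269 UMIs) and 148 CPM in CD169-DTR (87 UMIs) in NK cells, 0.13 (-0.23 to 0.49), and at 115 and 127 CPM in T cells, -0.14 (-0.41 to 0.14). Cd163l1 Il17a gamma-delta T-like cells held most, 346 CPM (120 UMIs) and 430 CPM (45 UMIs), -0.31 (-0.82 to 0.22). Foxp3 Treg-like cells held 66.6 CPM (32 UMIs, 42 cells) and 145 CPM (27 UMIs, 29 cells), -1.12 (-1.91 to -0.33), and Igfbp4 Tcf7 T cells 127 and 76.4 CPM, 0.73 (0.05 to 1.45). Among lymphocyte subsets of at least 10 cells, Il18r1 was thus highest in gamma-delta T-like cells and Il2rb and Il12rb2 in NK subsets, in both libraries. In WT the interval of the gamma-delta T-like cells overlapped that of the next subset, Ncr1 Klrc2 NK cells at 251 CPM (13 UMIs, 31 cells), which had 2 cells in CD169-DTR.

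**Figure D4:**
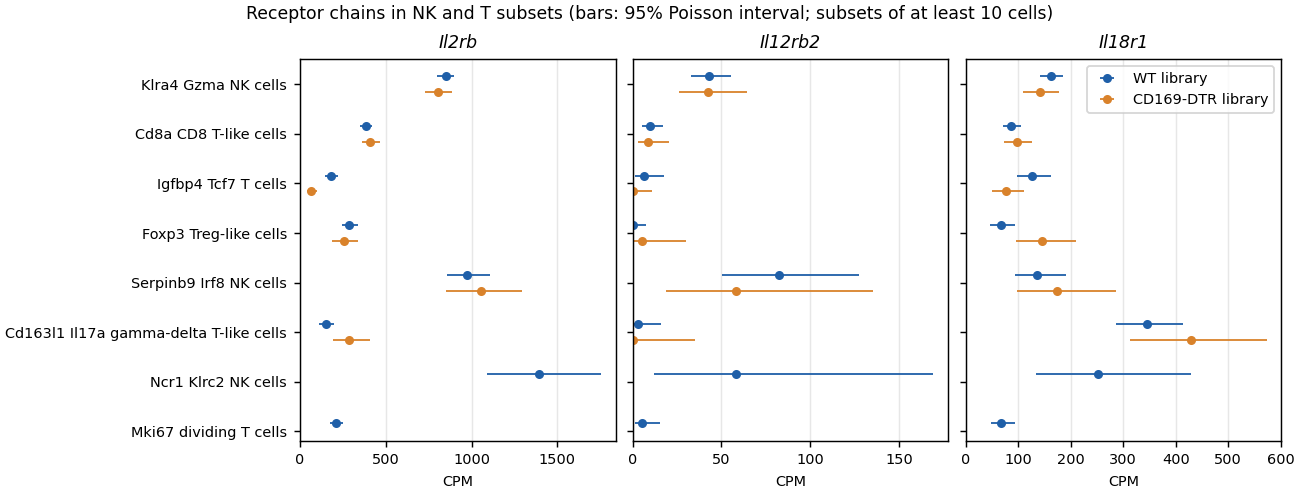
Levels of Il2rb, Il12rb2 and Il18r1 in NK and T subsets of at least 10 cells in both libraries, in CPM with exact 95% Poisson intervals. The libraries overlap in the Klra4 Gzma NK cells and the Cd8a CD8 T-like cells for all 3 genes, and are apart for Il2rb in the Igfbp4 Tcf7 T cells (180 against 64.7 CPM).

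Class levels leave out how many cells carry them, so member UMIs were also counted per 10000 immune cells, with the class shares of one library then applied to the other. Taken over all immune cells in CPM, 3 of 10 members were at least 2-fold higher in WT (Il12b, Il2rb, Il18r1; background 5.66% of 15026 genes) and 0 higher in CD169-DTR (background 1.93%). Il2rb stood at 2750 UMIs per 10000 immune cells in WT and 1330 in CD169-DTR, a log2 ratio of 1.05 (0.94 to 1.16). With equal class shares it was -0.01 (shares of CD169-DTR) or -0.11 (shares of WT). Il18r1 stood at 755 and 391 (0.95, 0.74 to 1.16), and at 0.07 or -0.05 with equal shares. Among immune cells of a named class, equal shares thus left ratios near 0 for both receptor genes. Outside these classes lay 18.8% of the Il2rb UMIs of all WT cells and 10.3% of those of CD169-DTR cells. For Il18r1 these parts were 17.8% and 6.57%, so the class shares leave out more of both genes in WT.

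The ligand genes behaved otherwise. Il15 stood at 2481 and 1648 UMIs per 10000 immune cells (0.59, 0.49 to 0.69) and at 0.29 or 0.46 with equal shares, so level and cell numbers each held a part. Il15ra stood at 2538 and 2211 (0.20, 0.11 to 0.29), and Il27 at 584 and 447 (0.39, 0.18 to 0.59). Il12b stood at 1402 and 674 (1.06, 0.90 to 1.21), at 0.96 with the class shares of CD169-DTR and 0.10 with those of WT. Microglia stood higher in WT and DCs higher in CD169-DTR, where 1 DC held 89 of 157 UMIs. Without the richest DC of each library the log2 ratio of the DC levels was 0.49. Ebi3 went the other way, at 2253 and 3173 (-0.49, -0.58 to -0.41), and at -0.27 or -0.47 with the class shares of CD169-DTR or WT held equal.

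**Figure D5:**
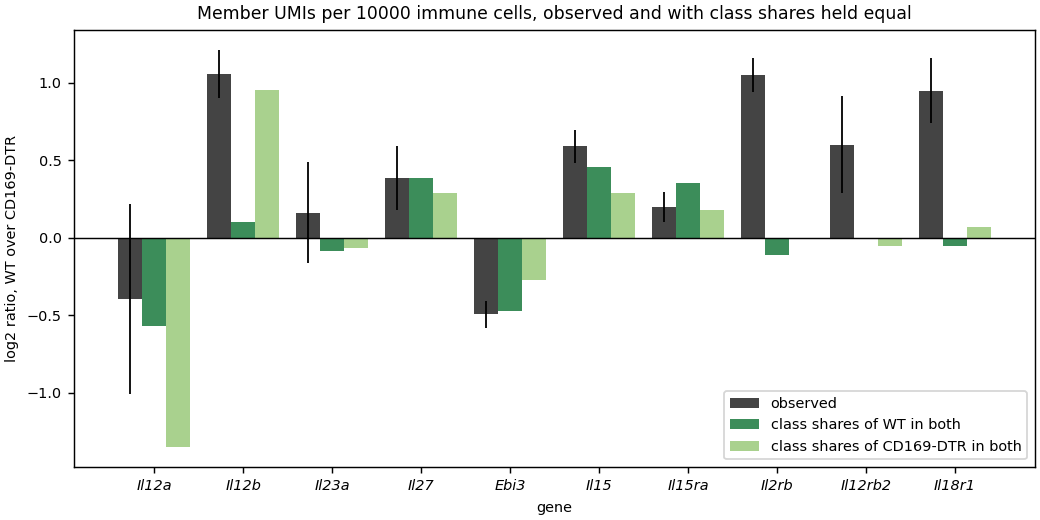
Log2 ratio of WT over CD169-DTR in member UMIs per 10000 immune cells, as observed with exact 95% intervals, and with the class shares of WT or of CD169-DTR held equal. Il2rb and Il18r1 lie near 1 as observed (1.05 and 0.95) and near 0 with equal shares, while Il15 stays above 0 in all 3 settings (0.59, 0.46 and 0.29).

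Subunits that pair in 1 protein were partly found in the same cells. Among WT DCs with an Il27 UMI, 40.4% (21 of 52) had an Ebi3 UMI against 19.2% of the others. In macrophages the shares were 14.5% against 9.87% in WT and 42.3% (11 of 26) against 21.0% in CD169-DTR, and in microglia 30.2% against 23.3% and 27.2% against 26.1%. Microglia with Il12b more often held Il15ra than microglia without, at 47.1% against 18.5% in WT and in 20 of 50 cells against 18.05% of the rest in CD169-DTR. Those with Il12b were deeper (medians of 11745.5 against 7479.5 UMIs in WT and 14296 against 7776 in CD169-DTR), and these shares were not thinned.

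Pathway genes around the members were counted in lists by the same 2-fold rule. In macrophages, 1 of 3 genes of the IL-18 system was higher in WT, Il18, the ligand of the Il18r1 receptor, at 94.4 and 42.2 CPM (1.16, 1.00 to 1.33). Of 7 costimulation and maturation genes, Cd40 was higher in WT (121 and 47.8 CPM, 1.35) and Ccl22 higher in CD169-DTR (5 and 22 UMIs). Of 12 lymphocyte target genes 2 were higher in WT, Prf1 with 18 and 2 UMIs, itself 1 of the 13 T and NK markers, which summed to 30.3 and 5.93 CPM in macrophages (its part was not tested), and Socs1, a feedback gene of cytokine signalling, at 101 and 40.6 CPM (1.31), and Ifng was higher in CD169-DTR (7 and 19 UMIs). Of the 9 transcription factor genes of the ligands 0 passed 2-fold, with Irf1, an activator of Il12a, Il15 and Il27, at 212 and 115 CPM (0.88, 0.78 to 0.98). The signalling genes had 0 of 9 past 2-fold, the other IL-12 family receptor chains 0 of 2, the IL-2 and IL-15 chains 1 of 3 (Il2ra, 45 and 2 UMIs) and the related cytokines 1 of 5, Ifnb1 higher in CD169-DTR (29 and 52 UMIs). Macrophages thus held less of a second lymphocyte-activating ligand gene, Il18, in CD169-DTR, next to Il15 and Il27.

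In DCs 1 of 8 costimulation and maturation genes was higher in WT, Fscn1 (198 and 79.8 CPM, 1.31), 1 of 3 IL-18 system genes, Il18bp (1.12), 1 of 9 target genes, Socs2 (92.8 and 25.8 CPM, 1.85), and 1 of 4 related cytokines, Il6 (118 and 3 UMIs), and 1 of 2 receptor chains was higher in CD169-DTR, Il27ra (12 and 8 UMIs). Fscn1 and Socs2 are among the 7 markers of migratory DCs, which were 118 of 884 DCs in WT and 11 of 162 in CD169-DTR. In microglia the signalling genes (9), transcription factors (9), receptor chains (3), IL-2 and IL-15 chains (3) and related cytokines (5) had 0 past 2-fold, while Il18bp, the inhibitor of IL-18, was higher in WT (36.2 and 17.3 CPM, 1.07), as were Ccr7 (94 and 41 UMIs) and the target genes Ifng, Eomes and Gzmb, which moved with the T and NK markers named above.

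In T cells 2 of 14 target genes were higher in WT, Gzmb, the cytotoxic granule protease (675 and 321 CPM, 1.07, 0.92 to 1.23), and Il10 (20 and 4 UMIs), both just short of 2-fold under median-ratio scaling, and 1 was higher in CD169-DTR, Ifng, the main product of IL-12 action (201 and 405 CPM, -1.01, -1.18 to -0.84). Il2ra, the alpha chain that makes the IL-2 receptor high-affinity, was higher in WT (147 and 42.6 CPM, 1.78, 1.38 to 2.21). Il18bp, Tnfsf9 and Il1b, with 33, 55 and 44 UMIs in WT and 6, 8 and 8 in CD169-DTR, completed the genes past 2-fold in T cells, and the 4 receptor chains, 9 signalling genes and 8 transcription factors had 0. NK cells had 0 past 2-fold of 13 target genes, where Gzmb stood at 3000.4 and 1681 CPM (0.84, 0.74 to 0.94) and Ifng at 399 and 503 CPM (-0.33, -0.53 to -0.13). Receptor partners were close in NK cells: Il12rb1 at 33.1 and 30.7 CPM, Il2rg at 296 and 263 CPM and Il18rap at 163 and 165 CPM.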

How the data were processed

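The authors aligned reads with Cell Ranger (version 3.1.0 per the file headers) to mm10 (per the labels' processing notes) and deposited UMI counts per gene and barcode, unfiltered, for 1 library per genotype. Total counts were 101808996 (WT) and 84065489 (CD169-DTR) UMIs, with medians of 7776 and 8099.5 per cell kept. After the limits of 1000 UMIs and 17% mitochondrial UMIs (249 and 218 barcodes left out by the latter), cells were integrated and clustered in Seurat 5.3.0 (R 4.3.3; 2000 variable features, 50 integration and 30 clustering dimensions, resolution 1) with the members and list genes kept out of the features. Clusters were named from at least 3 detected markers. T and NK, DC and pDC, and macrophage clusters were clustered again (20 dimensions, resolution 0.5) for subsets. Those led by markers of another class were left unnamed. Microglial subsets are the main clusters and were kept even where such markers led. No cell annotation was used, so names are rebuilt, and 621 and 208 cells stayed unnamed. Results for some list genes are not reported here. Doublets were kept. Removing them with Scrublet (scanpy 1.11.5; 299 and 445 cells, the latter all cells from the 95th percentile of the score up, 5.85% with ties, because the caller marked 0.0132%) was an alternative.

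Levels are summed UMIs per 1000000 with exact Poisson intervals, shares have exact binomial (Clopper-Pearson) intervals and ratios exact conditional intervals, all 95% (scipy 1.17.1) and for counting error only. The limit for a count of 0 is 3 counts. With 1 library per group no test was run. Named genes are the 10 members in every class, the pathway lists by counts with values in a leading class, Siglec1, and the 3 genes most correlated with each member of at least 100 UMIs (log2(CPM + 1), subsets of at least 30 cells, genes of at least 200 UMIs). List genes named for passing 2-fold, and the partners beside them, were chosen after their values were seen. Members and lists were chosen with earlier results of these data known. The computations were tested on simulated data, drawn as Poisson counts from class totals. The simulated data had no spread between cells or mice, so the intervals were not tested for genes held by few cells.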

Additional observations from a re-analysis of the deposited data

Results flagged for a closer look

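Il12b moved in opposite directions in cell groups of the same libraries, and these differences between groups were not tested. On the log2 scale, WT over CD169-DTR, it stood at 1.52 in microglia and -1.30 in macrophages (12 and 16 UMIs). Among subsets it was 2.04 in Il1a Ccl4 microglia (62 and 23 UMIs), 1.27 in Cxcl13 Ccl12 microglia and 2.04 in Uhrf1 Ccne1 microglia (60 and 17 UMIs). It was -1.08 in Ccr7 migratory DC-like cells, where 1 of 11 CD169-DTR cells held 89 of 155 UMIs. In Spp1 Lpl microglia, whose leading genes against other microglia hold 3 macrophage markers, it was -2.92 (8 and 67 UMIs). Few cells held most microglial Il12b UMIs (608 of 696 in 21 WT cells, 222 of 293 in 16 CD169-DTR cells), which counting intervals do not cover. Il2rb stood at 1.48 in Igfbp4 Tcf7 T cells and at -3.83 in Mmp12 Cxcl3 macrophages, where 31 CD169-DTR UMIs lay in 1 cell.

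Member UMIs were also found in cells outside the comparisons. Endothelial cells, which a CD45.2 sort should remove, held Il15 at 31.7 CPM in WT (146 UMIs) and 25.5 CPM in CD169-DTR (83 UMIs) and Il15ra at 28.0 and 27.0 CPM (129 and 88 UMIs). In WT they held Il2rb at 13.5 CPM (62 UMIs in 14 cells, 9 of which had at least 3 of 13 T and NK markers). Barcodes without a class held Il2rb at 73.6 CPM in WT (505 UMIs) and 36.1 CPM in CD169-DTR (102 UMIs), and Il18r1 at 18.5 CPM in WT (127 UMIs).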

How the results depend on the processing

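No paired analysis was possible because each group has 1 library. Il15 in macrophages stayed higher in WT under all 12 alternatives, from 0.63 to 1.66 on the log2 scale, and Il12b in microglia under all 13, from 1.18 to 1.95. The value of 1.95 was without the microglial subsets led by markers of another class (chosen after seeing the data). There 1 member of at least 20 UMIs passed 2-fold, and Il18r1, at 4.45, had too few UMIs left to be counted. With equal weight per cell, Il12b was 1.18 in microglia and 0.096 in DCs and Il15 1.13 in macrophages. With equal weight per cluster, Il12b was 1.28 in microglia and -1.03 in DCs, Il15 0.63 and Il15ra 0.87 in macrophages (2 members past 2-fold), and Il2rb 0.57 and Il18r1 -0.77 in NK cells, where a cluster of 31 WT and 2 CD169-DTR cells then counts as much as the others. Without the richest DC of each library Il12b was 0.49 in DCs. Without the 5 cells with most UMIs of the gene, an alternative chosen after seeing the data, Il12b was 4.59 and Il15ra 2.02 in DCs and 6 members passed 2-fold there. Only 6 of 162 CD169-DTR DCs had an Il12b UMI, against 47 of 884 in WT. Leaving out 5 cells per library thus takes far more from CD169-DTR, so these DC values cannot compare the libraries. With doublets removed Il12b in macrophages was 0.027. Macrophages with Il15 were 19.1% and 9.09% when thinned to 5000 UMIs and 23.1% and 18.2% without thinning. With list genes of at least 100 UMIs, 1 member passed 2-fold in microglia and 0 in NK cells, the macrophage member median was 1.53 and the related cytokines of T cells had a median of -0.50. Unless stated, the cause was not tested. At 2000 UMIs, 10% mitochondrial UMIs, resolution 0.5 or merging without integration, all 118 results stayed within the limits set for no change. The last 2 settings still left out the sub-clusters that the main clustering left unnamed. With those kept in their class, an alternative that was not planned, 8 of 118 results moved. Among these, Il12b in DCs was 38.8 CPM in WT and 42.3 CPM in CD169-DTR, and Il2rb in WT NK cells was 796 CPM. Depth limits Il12a (95 UMIs in immune cells) and every CD169-DTR DC subset, the smallest with 11 cells.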

Other observations

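Over 52 points (subsets of at least 30 cells in each library, which share libraries and depth) 11698 genes were ranked by the likeness of their log levels to each member, as a description. Il2rb was most like Gzmb (Pearson r 0.97), Trbc1 and Fhl2 (both 0.96), and Il18r1 most like Zap70 (0.97), Tox and Cd96 (both 0.96). Il12rb2 was closest to the NK receptor genes Klre1 and Klrc2 (both 0.81) and Ncr1 (0.80). Among ligand genes, Il15 was closest to Ogfrl1 (0.77), Ifi204 (0.76) and Snx10 (0.74), Il27 to Sppl2a (0.81), Tor1aip1 (0.76) and Il18 (0.75), and Il15ra to Sppl2a and Uba7 (both 0.65) and Kalrn (0.64). Ebi3 was closest to Gab2 and Asah1 (both 0.86) and Btk (0.85), Il23a to Gm13822 (0.72), Oasl2 and Il1rn (both 0.71), and Il12b to H2-M2 (0.79), Il4i1 (0.65) and Cacna1s (0.64).

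B cells held Il15ra at 33.9 CPM in WT and 5.97 CPM in CD169-DTR, and Il12b at 9 UMIs in WT and 0 in CD169-DTR. Granulocytes held Il15ra at 30.4 CPM (20 UMIs) and 8.88 CPM (8 UMIs).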
